A study of Mus musculus with 6 samples.

Results

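The genes of the major histocompatibility complex (MHC) and of antigen presentation were examined in whole mouse uteri on gestational day 4, counted with the vaginal plug as day 1. The members were all genes of the deposited tables whose symbol starts with H2- together with 13 named genes, B2m, Tap1, Tap2, Tapbp, Cd74, Ciita, Nlrc5, Psmb8, Psmb9, Psmb10, Psme1, Psme2 and Erap1. This gave 47 of 21936 genes: 25 class I genes with B2m, 10 class II genes with Cd74, 9 genes of peptide supply and loading, 2 transactivators, and H2-Ke6, which encodes a steroid dehydrogenase that lies in the locus and presents no antigen. The 6 libraries came from females mated at 6 to 8 weeks of age, 3 with the label Mettl3 f/f and 3 with Mettl3 d/d, by the usual notation a floxed allele and its deleted form. Mettl3 encodes the catalytic subunit of the RNA N6-methyladenosine writer. The labels give no Cre driver, no deleted exon, no mouse strain and no word on whether replicates were separate animals, so the p-values cover no more than library-to-library spread, which may be technical.

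MHC class I molecules pair a heavy chain with beta-2-microglobulin and show peptides from the cytosol to CD8 T cells and natural killer cells. The peptides are cut by the immunoproteasome, carried into the endoplasmic reticulum by the TAP transporter, trimmed there by ERAP1 and loaded with the help of tapasin. MHC class II molecules are alpha and beta chain pairs that show peptides from endosomes to CD4 T cells. The invariant chain Cd74 escorts them, H2-DM loads them and H2-O restrains H2-DM. Class I genes are active in most cells, whereas class II genes are mainly active in dendritic cells, macrophages and B cells and can be induced by interferon gamma in others. Nlrc5 and Ciita are the transactivators of class I and class II genes respectively.

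The promoters of both classes carry short shared elements, the X and Y boxes, on which these transactivators act. The other motifs marked below, an interferon element and a kappa B site, are not among these shared elements. The following 6 stretches are chosen examples that do not show how common a motif is, with class I (H2-K1, H2-D1 and B2m) first and class II (H2-Aa, H2-Eb1 and H2-DMb1) after it. Each is the 180 bases just before a RefSeq start site, 5′ to 3′ on the gene's strand (build GRCm38.p6), and capitals mark matches, on either strand, to the 4 motifs named after them.
H2-K1 (chr17:34000348-34000527, minus strand): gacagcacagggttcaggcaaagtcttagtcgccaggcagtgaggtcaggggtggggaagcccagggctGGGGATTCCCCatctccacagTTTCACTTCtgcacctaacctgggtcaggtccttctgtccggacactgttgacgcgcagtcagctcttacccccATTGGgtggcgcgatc
H2-D1 (chr17:35262914-35263093, plus strand): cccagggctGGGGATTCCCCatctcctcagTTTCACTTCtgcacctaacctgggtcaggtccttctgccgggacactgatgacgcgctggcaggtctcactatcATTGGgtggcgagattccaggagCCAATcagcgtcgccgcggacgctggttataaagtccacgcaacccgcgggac
B2m (chr2:122147507-122147686, plus strand): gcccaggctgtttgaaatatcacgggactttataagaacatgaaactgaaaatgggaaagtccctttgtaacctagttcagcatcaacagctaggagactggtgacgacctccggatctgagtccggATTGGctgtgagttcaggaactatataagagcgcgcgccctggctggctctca
H2-Aa (chr17:34287824-34288003, minus strand): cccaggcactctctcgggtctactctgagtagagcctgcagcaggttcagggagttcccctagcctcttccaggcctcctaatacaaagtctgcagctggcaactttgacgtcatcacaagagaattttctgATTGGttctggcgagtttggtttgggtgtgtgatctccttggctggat
H2-Eb1 (chr17:34305687-34305866, plus strand): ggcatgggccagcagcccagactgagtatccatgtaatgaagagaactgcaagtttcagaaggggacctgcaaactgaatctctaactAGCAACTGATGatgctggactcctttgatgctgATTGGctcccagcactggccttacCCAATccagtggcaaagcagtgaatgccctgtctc
H2-DMb1 (chr17:34153011-34153190, plus strand): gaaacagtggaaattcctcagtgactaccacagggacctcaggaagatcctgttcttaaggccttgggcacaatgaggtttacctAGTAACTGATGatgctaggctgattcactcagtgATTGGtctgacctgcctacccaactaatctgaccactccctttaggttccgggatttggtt

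The motifs were the Y box core CCAAT, an X box form (in capitals before the Y box of H2-Eb1 and H2-DMb1), an interferon element form GAANNGAAA and the palindromic kappa B site (the first capitals in H2-K1 and H2-D1), and no match in a stretch overlaps another. They were searched in RefSeq windows of 300 bases, from 250 before to 50 after each start, which 40 of the 47 members had. CCAAT was in all 8 class II genes with a window (H2-Ab1 and Cd74 had none), in 20 of 23 class I genes and in 41.1% of 27025 genes. The X box form was in 4 class II genes (H2-DMb1, H2-Eb1, H2-Eb2 and H2-Oa), in 4 class I genes of the H2-M10 group and in 1.14% of all genes. The interferon element form was in 8 class I genes, among them H2-K1, H2-D1 and H2-Q7, in 0 class II genes and in 8.68% of all genes. The kappa B palindrome was in H2-K1, H2-D1 and H2-Q6 and in 0.0333% of all genes. A match is a description of letters and shows no binding. Only these forms were searched, so the shares hold for them alone. A gene without a match, such as B2m for the interferon and kappa B motifs, may hold other forms of the same elements.

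Values are FPKM, fragments scaled to gene length and to the mapped fragments of the library, a unit inferred for the deposited files. Each library summed to 535043 to 625575 FPKM over 15978 to 16359 genes above 0. The files hold no read counts, so the absolute depth is unknown, and the step between low values put depth relative to f/f replicate 1 between 0.935 and 1.01. All 8 uterine markers examined, among them Pgr, Esr1 and Hoxa10, stood above 1 FPKM in every library, although Hoxa10 and Hoxa11 were called lower (log2 fold change -2.16 and -2.22, limma adjusted p = 0.00608 and 0.00887) and Emx2 higher (0.76, limma adjusted p = 0.0415). The Emx2 call was lost without a filter on low values, with quantile normalization and with the replicate number as a block. It was also lost without any 1 f/f library and without labelled d/d replicate 1 or 3. Without f/f replicate 1, 2 or 3, 0, 1 or 1 of these markers was called lower. Mettl3 was at 30.3, 29.8 and 26.3 FPKM across f/f libraries, against 42.9, 30.1 and 46.5 across those labelled d/d. A whole-gene value does not check a partial deletion, so every direction given here rests on the labels. Over 12979 tested genes the median SD on the log2 scale was 0.126 within f/f and 0.301 within labelled d/d.

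No MHC or antigen presentation gene passed the test between the labelled genotypes, and the labelled d/d libraries differed widely among themselves. Of the 47 members 33 were tested, those that reached 1 FPKM in 3 or more libraries. Of these 33, 0 were called by limma on log2(FPKM + 1) at a Benjamini-Hochberg adjusted p under 0.05 over all genes, against 7.3% of all genes tested (3.49% higher and 3.81% lower). At an unadjusted p under 0.05 there were 6 members (18.2%), against 26.7% of all genes. The 6 were H2-D1, H2-K1, H2-Q2, H2-Q7 and Psmb10 on the higher side and H2-M5 on the lower side. The groups did not overlap in 3 members higher in labelled d/d, against 18.1% of all genes, and in 2 members lower, H2-M5 and H2-Ke6, against 17.8%, which makes 5 of 33 members against 35.9% in either direction.

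**Figure D1:**
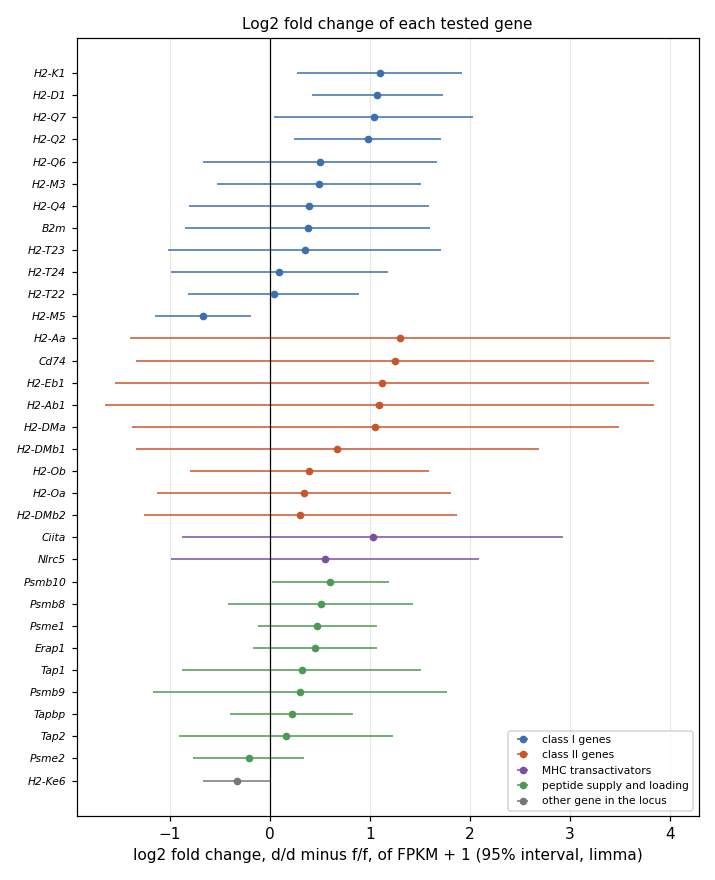
Log2 fold change (labelled d/d minus f/f, of FPKM + 1, horizontal axis) of each of the 33 tested genes, coloured by role, with the 95% interval of the limma fit. The intervals of the class II genes all span 0 and are the widest for H2-Aa, Cd74, H2-Eb1 and H2-Ab1, while those of H2-K1, H2-D1, H2-Q7, H2-Q2 and Psmb10 lie above 0 and that of H2-M5 lies below 0 before adjustment.

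The class II chains set the labelled d/d libraries apart from one another more than from the f/f libraries. H2-Aa, the alpha chain of the A molecule (chromosome 17, 34282744 to 34287823, minus strand), was at 249, 195 and 200 FPKM across f/f replicates 1 to 3, against 487, 2918 and 102 across labelled d/d replicates 1 to 3. Labelled d/d replicate 2 thus stood 13.6-fold above the f/f mean and labelled d/d replicate 3 at 0.476 of it, so the f/f values lay inside the labelled d/d range. H2-Ab1, its beta chain (chromosome 17, 34257689 to 34269419), was at 261, 201 and 175 FPKM across f/f libraries, against 464, 2407 and 80.7 across labelled d/d libraries. H2-Eb1, the beta chain of the E molecule (chromosome 17, 34305867 to 34316674), was at 138, 101 and 116 FPKM across f/f libraries, against 225, 1423 and 51.9 across labelled d/d libraries. Cd74, the invariant chain (chromosome 18, 60803848 to 60812652), was at 320, 242 and 288 FPKM across f/f libraries, against 690, 3276 and 133 across labelled d/d libraries. In all 4 genes labelled d/d replicate 2 was the highest library, labelled d/d replicate 1 the second and labelled d/d replicate 3 the lowest. None passed: the log2 fold change of H2-Aa was 1.30 (95% interval -1.40 to 4.00, limma adjusted p = 0.499), and the exact permutation test (two-sided) returned p = 0.4, where 3 against 3 libraries cannot go below 0.1.

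The peptide editors of class II showed the same order of libraries at lower levels. H2-DMa, the alpha chain of the editor that exchanges peptides, was at 29.6, 16.6 and 15.8 FPKM across f/f libraries, against 48.8, 174 and 8.33 across labelled d/d libraries. H2-DMb1, a beta chain of the same editor, was at 15.0, 9.05 and 9.0 FPKM across f/f libraries, against 20.4, 57.6 and 4.22 across labelled d/d libraries. Both were therefore highest in labelled d/d replicate 2 and lowest in labelled d/d replicate 3, as were the H2-A and H2-E chains. H2-DMb2, H2-Oa and H2-Ob were at 1.24 to 2.05 FPKM in f/f libraries. In labelled d/d replicate 2 they reached 7.77, 8.57 and 6.47 FPKM, and in labelled d/d replicate 3 they stood at 0.408, 0.776 and 0.881. H2-DMb2 and H2-Oa differed from the other class II genes in labelled d/d replicate 1, where their 1.24 and 1.55 FPKM lay just under every f/f library, as 37.2% of all genes tested did there.

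Across the class, labelled d/d replicate 2 was the highest and labelled d/d replicate 3 the lowest library in 9 of 9 tested class II genes, against 7.54% of all genes tested. Labelled d/d replicate 3 lay below every f/f library in 9 of 9, against 40.7% of all genes tested. This order held in 3 of 12 class I genes and in 0 of 9 genes of peptide supply and loading. Labelled d/d replicate 2 over the f/f mean ran from 3.79-fold (H2-Ob) to 13.6-fold (H2-Aa), and the level in labelled d/d replicate 3 from 0.282 (H2-DMb2) to 0.517 (H2-Ob) of the f/f mean. The median log2 fold change of the 9 genes was 1.06, against 0.02 over all genes tested, and it was -0.11 without labelled d/d replicate 2. The tenth class II gene, H2-Eb2, was not tested. It was at 0.106 FPKM or less in every library except labelled d/d replicate 2, where it was at 0.823.

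**Figure D2:**
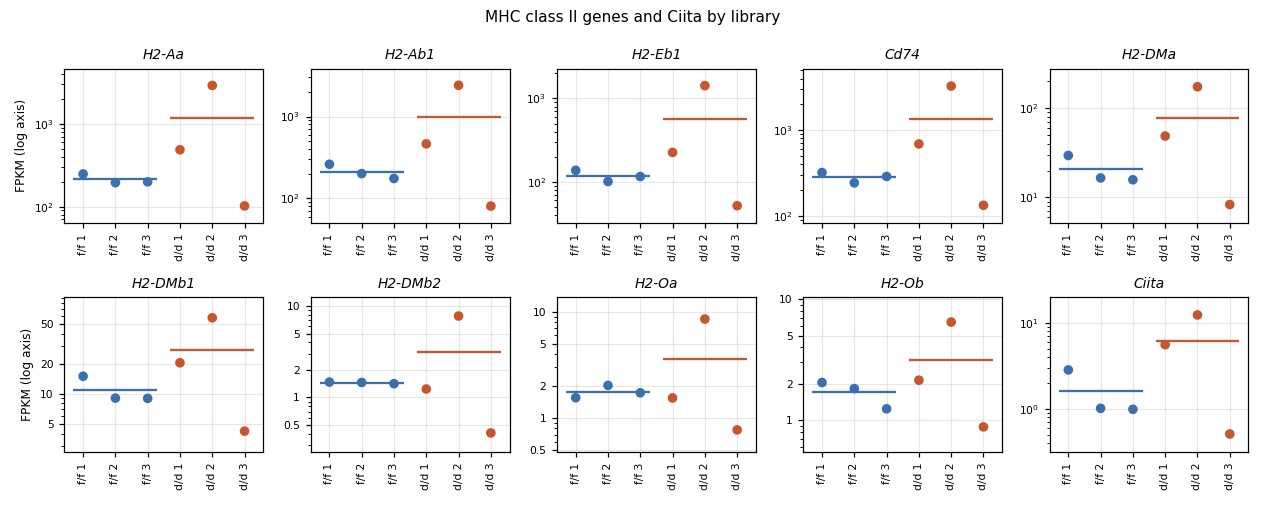
FPKM (log axis) of the 9 tested class II genes and of Ciita in each library, f/f in blue and labelled d/d in orange, with horizontal lines at the group means. In every panel labelled d/d replicate 2 is the highest point and labelled d/d replicate 3 the lowest, as in H2-Aa with 2918 and 102 FPKM.

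The pairs of class II partners kept similar ratios while their levels differed between libraries. The ratio of H2-Aa to H2-Ab1 was 0.951, 0.969 and 1.14 across f/f libraries, against 1.05, 1.21 and 1.27 across labelled d/d libraries. The ratio of Cd74 to H2-Ab1 was 1.21 to 1.64 in f/f and 1.36 to 1.64 in labelled d/d libraries. Both ratios overlapped between the genotypes, over libraries in which H2-Ab1 itself ran from 80.7 to 2407 FPKM. These ratios, and the others given here, were chosen after the values had been seen.

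The heavy chains H2-K1 and H2-D1 were the class I genes that stood higher in all 3 labelled d/d libraries at high levels, although neither passed over all genes. H2-K1 (chromosome 17, 33996017 to 34000347, minus strand) was at 2084, 2036 and 1307 FPKM across f/f libraries, against 4460, 4882 and 2504 across labelled d/d libraries. H2-D1 (chromosome 17, 35262730 to 35267499) was at 419, 409 and 284 FPKM across f/f libraries, against 857, 969 and 554 across labelled d/d libraries. For both genes every labelled d/d value lay above every f/f value. The means were 2.18-fold and 2.14-fold those of f/f, with a log2 fold change of 1.10 ± 0.34 (SE) for H2-K1 and 1.08 ± 0.27 (SE) for H2-D1 (limma adjusted p = 0.103 and 0.0662). The exact two-sided permutation test gave its smallest possible p of 0.1 for each. Without labelled d/d replicate 3 both passed, together with H2-Q7 (limma adjusted p = 0.0455, 0.0346 and 0.0448), and 0 class I genes passed without any other library.

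B2m, the light chain of every class I molecule (chromosome 2, 122147686 to 122153083), did not follow the heavy chains in every library. It was at 3562, 2984 and 2027 FPKM across f/f libraries, against 4193, 6428 and 1769 across labelled d/d libraries. Labelled d/d replicate 3 had the lowest B2m level of all libraries while its H2-K1 level lay above every f/f library. The log2 fold change was 0.38 (limma adjusted p = 0.670) with all libraries and -0.03 without labelled d/d replicate 2. The ratio of H2-K1 to B2m was 0.585, 0.682 and 0.645 across f/f libraries, against 1.06, 0.760 and 1.42 across labelled d/d libraries, with no overlap. The ratio of H2-D1 to B2m was 0.118, 0.137 and 0.140 across f/f libraries, against 0.204, 0.151 and 0.313 across labelled d/d libraries, again with no overlap. The ratio of H2-K1 to H2-D1 in contrast ran from 4.52 to 5.20 over all 6 libraries and overlapped.

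The nonclassical class I genes of the Q region were mixed. H2-Q7 (chromosome 17, 35439155 to 35443773), whose protein can be anchored to the membrane by a lipid or secreted, was at 75.9, 58.3 and 39.6 FPKM across f/f libraries, against 155, 158 and 64.1 across labelled d/d libraries. Labelled d/d replicate 3 lay between the f/f libraries, and the log2 fold change was 1.04 (limma adjusted p = 0.172). H2-Q6 was at 84.1, 73.8 and 44.5 FPKM across f/f libraries, against 144, 125 and 44.1 across labelled d/d libraries. H2-Q4 was at 118, 99.2 and 68.1 FPKM across f/f libraries, against 194, 169 and 55.6 across labelled d/d libraries. In both, labelled d/d replicates 1 and 2 were above and replicate 3 below every f/f library. H2-Q2 stood at low levels of 1.14, 1.69 and 2.37 FPKM across f/f libraries, against 6.70, 2.96 and 3.87 across labelled d/d libraries, with no overlap (log2 fold change 0.98, limma adjusted p = 0.104).

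The T and M region genes showed no common direction. H2-T23, which encodes Qa-1, the ligand of the natural killer receptor CD94-NKG2A, was at 66.4, 50.3 and 33.9 FPKM across f/f libraries, against 111, 83.6 and 25.2 across labelled d/d libraries. H2-T22, a ligand of some gamma delta T cells, was at 64.1, 52.4 and 40.1 FPKM across f/f libraries, against 78.9, 58.5 and 31.6 across labelled d/d libraries. H2-M3, which presents formylated peptides, was at 9.22, 7.57 and 5.72 FPKM across f/f libraries, against 14.1, 16.7 and 5.10 across labelled d/d libraries. In all of these labelled d/d replicate 3 was the lowest library, as it was in H2-T24, at 2.49 to 4.09 FPKM across f/f libraries, against 4.13, 6.90 and 1.33 across labelled d/d libraries. H2-M5 went the other way. It was at 1.39, 1.36 and 1.55 FPKM across f/f libraries, against 0.736, 0.674 and 0.244 across labelled d/d libraries, with no overlap (log2 fold change -0.66, limma adjusted p = 0.0959).

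**Figure D3:**
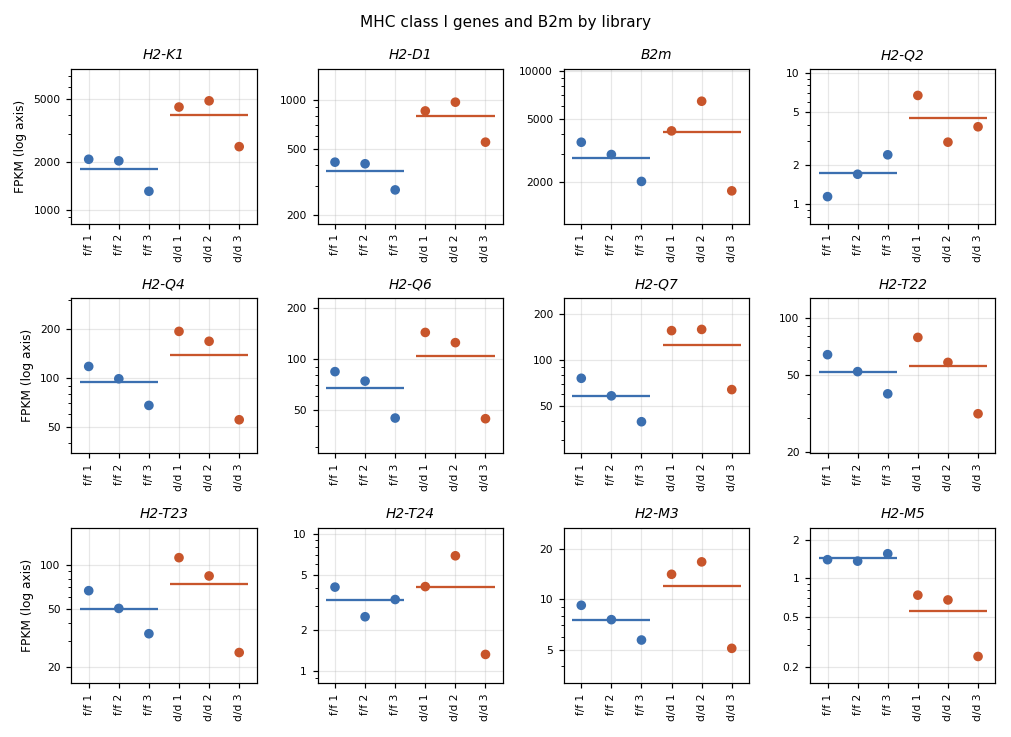
FPKM (log axis) of the 12 tested class I genes, B2m included, in each library, f/f in blue and labelled d/d in orange, with horizontal lines at the group means. The labelled d/d points of H2-K1, H2-D1 and H2-Q2 all lie above the f/f points and those of H2-M5 all below them, while in B2m, H2-Q4, H2-Q6, H2-T22, H2-T23, H2-T24 and H2-M3 labelled d/d replicate 3 is the lowest point.

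The other 13 class I genes stood too low to be tested. Of these, 7 were listed at 0 in all libraries (H2-M1, H2-M10.2 to H2-M10.6 and H2-M11), and a value of 0 can be a failed estimate in these files. H2-M10.1, H2-M9, H2-T3 and H2-Q1 reached at most 0.135 FPKM in any library. H2-M2 and H2-Q10 were above 1 FPKM in labelled d/d replicate 2 alone, at 2.88 and 2.69, against at most 0.128 and 0.455 in the other libraries. Class I genes resemble one another, which bears on how fragments are assigned: of the distinct 50-base words in their annotated transcripts, 9.63% in H2-K1, 12.8% in H2-D1, 26.4% in H2-Q7, 32.0% in H2-Q6 and 34.5% in H2-T22 also occur in transcripts of other genes. This share was 0.576% in H2-M3, 0.886% in H2-M5 and 0% in B2m. Among class II genes it was 22.7% in H2-DMb1 and 24.8% in H2-DMb2, at most 0.488% in the others, and 0% in Cd74. Levels of the genes with high shares are less certain. MHC genes also differ in sequence between mouse strains, and the match of these animals to the reference was not tested.

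Set side by side, the 2 classes differed most in labelled d/d replicate 2. The median log2 difference from the f/f mean over the 12 class I genes was 0.30, 0.06 and -0.40 in f/f replicates 1 to 3 and 1.09, 0.91 and -0.60 in labelled d/d replicates 1 to 3. Over the 9 class II genes it was 0.22, -0.13 and -0.09 in f/f and 0.94, 3.07 and -1.08 in labelled d/d libraries. Both classes were thus above f/f in labelled d/d replicates 1 and 2 and below it in replicate 3, and class II exceeded class I only in replicate 2. Over all genes tested these medians lay within 0.01 of 0 in every library. The class medians of the log2 fold change were 0.44 for class I and 1.06 for class II. Their difference of 0.62 turned to -0.29 without labelled d/d replicate 2.

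Neither transactivator passed the test between the labelled genotypes. Ciita (chromosome 16, 10480059 to 10528418) was at 2.83, 1.01 and 0.989 FPKM across f/f libraries, against 5.56, 12.3 and 0.512 across labelled d/d libraries. Its highest and lowest libraries were those of the class II genes (log2 fold change 1.03, limma adjusted p = 0.446). Nlrc5 (chromosome 8, 94434356 to 94527272) was at 43.4, 31.6 and 18.3 FPKM across f/f libraries, against 84.3, 59.8 and 16.0 across labelled d/d libraries. Its highest library was labelled d/d replicate 1, as in H2-Q2, H2-Q4, H2-Q6, H2-T22 and H2-T23, whereas H2-K1, H2-D1, B2m, H2-Q7, H2-M3 and H2-T24 were highest in labelled d/d replicate 2 (for Nlrc5, log2 fold change 0.55, limma adjusted p = 0.620). Of 7 genes for factors that bind the X and Y boxes, 6 were tested and 0 passed, with 1 at an unadjusted p under 0.05 (26.7% of all genes). That gene was Nfyc, at 23.9 to 31.8 FPKM in f/f and 17.2 to 21.6 in labelled d/d libraries, and Nfya was listed at 0 in all libraries. Rfx5, of the complex that holds Ciita at the X box, was at 23.1, 21.9 and 21.2 FPKM across f/f libraries, against 25.9, 14.6 and 15.0 across labelled d/d libraries.

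The immunoproteasome catalytic subunits were highest in labelled d/d replicate 1. Psmb8 was at 193, 144 and 92.4 FPKM across f/f libraries, against 261, 237 and 120 across labelled d/d libraries. Psmb9 was at 95.3, 67.1 and 32.2 FPKM across f/f libraries, against 122, 102 and 31.4 across labelled d/d libraries. Psmb10 was at 125, 91.9 and 66.9 FPKM across f/f libraries, against 158, 142 and 122 across labelled d/d libraries, where only labelled d/d replicate 3 lay below an f/f library (log2 fold change 0.61, limma adjusted p = 0.174). Psmb8, Psmb9 and Psmb10 take the places of the standard subunits Psmb5, Psmb6 and Psmb7. The ratio of Psmb8 to Psmb5 was 2.58, 1.72 and 1.21 across f/f libraries, against 3.15, 3.22 and 0.805 across labelled d/d libraries. That of Psmb9 to Psmb6 was 0.492, 0.334 and 0.174 across f/f libraries, against 0.721, 0.527 and 0.120 across labelled d/d libraries. Labelled d/d replicates 1 and 2 had the highest and replicate 3 the lowest value of both ratios. The ratio of Psmb10 to Psmb7 was 0.751 to 1.49 across f/f libraries, against 2.01, 1.75 and 0.997 across labelled d/d libraries.

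Among the proteasome activator subunits Psme1 was at 395, 305 and 209 FPKM across f/f libraries, against 447, 403 and 375 across labelled d/d libraries. Psme2, its partner in the same ring, was at 144, 137 and 97.3 FPKM across f/f libraries, against 128, 117 and 82.0 across labelled d/d libraries. The ratio of Psme1 to Psme2 was 2.75, 2.22 and 2.14 across f/f libraries, against 3.49, 3.43 and 4.58 across labelled d/d libraries, with no overlap. For Psme2, 28.3% of the 50-base words occur in other genes. Of 15 genes of the standard proteasome core and its other activator, 0 passed and 3 (20%) had an unadjusted p under 0.05, a share below the 26.7% of all genes. These were Psma1, Psma4 and Psma7, with log2 fold changes of 0.40, 0.39 and 0.39. All 15 stood above every f/f library in labelled d/d replicate 3, where the immunoproteasome genes did not, against 42.3% of all genes tested.

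The peptide transporter and loading genes did not differ beyond the spread. Tap1 was at 86.3, 67.6 and 38.0 FPKM across f/f libraries, against 130, 85.7 and 39.0 across labelled d/d libraries. Tap2 was at 42.8, 36.7 and 25.7 FPKM across f/f libraries, against 60.6, 49.2 and 19.1 across labelled d/d libraries. Tapbp, which encodes tapasin, was at 156, 141 and 127 FPKM across f/f libraries, against 233, 163 and 117 across labelled d/d libraries. Erap1, the trimming peptidase, was at 30.7, 25.9 and 22.7 FPKM across f/f libraries, against 48.4, 39.1 and 25.1 across labelled d/d libraries. Labelled d/d replicate 1 was the highest library in each of these 4 genes, and the groups overlapped in each. The limma adjusted p-values ran from 0.311 (Erap1) to 0.842 (Tap2). Tap1 and Psmb9 overlap head to head on opposite strands (chromosome 17, 34187553 to 34197225 and 34181987 to 34187764), and Erap1 overlaps Cast on the other strand.

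**Figure D4:**
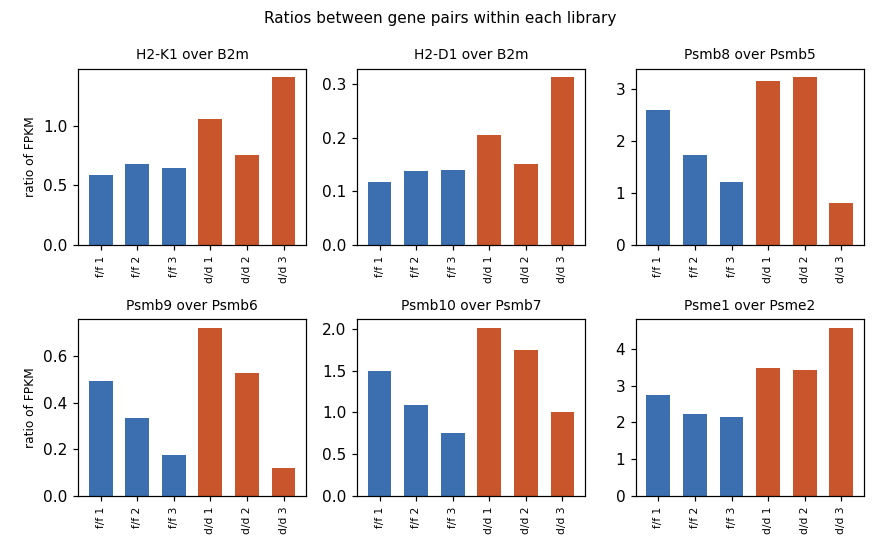
Ratios of FPKM within each library, f/f in blue and labelled d/d in orange, as bars from 0. The ratios of H2-K1 and H2-D1 to B2m and of Psme1 to Psme2 are higher in every labelled d/d library than in any f/f library, with 0.760 to 1.42 against 0.585 to 0.682 for H2-K1, while the ratios of Psmb8 to Psmb5 and of Psmb9 to Psmb6 are lowest in labelled d/d replicate 3.

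The f/f libraries were not alike in these genes. In 9 of 9 genes of peptide supply and loading, 9 of 12 class I genes and both transactivators, f/f replicate 1 was the highest and f/f replicate 3 the lowest f/f library, against 17.2% of all genes tested. For Psmb9 the f/f libraries differed by 2.96-fold and for Tap1 by 2.27-fold. The median SD on the log2 scale among f/f libraries was 0.355 for class I, 0.445 for peptide supply and loading and 0.220 for class II, and among labelled d/d libraries it was 0.783, 0.492 and 2.12. Irf1, which carries the interferon gamma signal to these promoters, was also highest among f/f in replicate 1, at 71.0 FPKM against 41.5 and 33.1. In labelled d/d libraries Irf1 was at 81.6, 91.8 and 47.0 FPKM.

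Of 10 genes of interferon gamma signalling 9 were tested, 0 passed and 4 had an unadjusted p under 0.05, against 26.7% of all genes. The receptor genes Ifngr1 and Ifngr2 were at 25.0 to 29.5 and 30.3 to 37.4 FPKM in f/f and at 42.7 to 112 and 39.8 to 61.2 in labelled d/d libraries, with no overlap (limma adjusted p = 0.0951 and 0.0971). Jak2, a kinase of that receptor, was at 58.6 to 69.2 FPKM across f/f libraries, against 52.7, 25.8 and 34.3 across labelled d/d libraries (limma adjusted p = 0.113). Ifng itself was low, with 0.335 to 0.803 FPKM across f/f libraries, against 0.347, 2.19 and 0.247 across labelled d/d libraries.

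Among genes of endosomal processing for class II, the cathepsin genes Ctsh and Ctsb were higher. Of 9 tested, 2 passed, both higher (3.49% of all genes), and 5 had an unadjusted p under 0.05 (26.7% of all genes). Ctsh, a cathepsin that acts as an aminopeptidase, rose from 86.3, 78.9 and 104 FPKM in f/f to 243, 410 and 220 in labelled d/d libraries (log2 fold change 1.64, limma adjusted p = 0.0244). Ctsb rose from 362, 412 and 349 FPKM to 665, 919 and 599 (log2 fold change 0.94, limma adjusted p = 0.0435). In both every labelled d/d library lay above every f/f library, labelled d/d replicate 3 included. Ctss, which cuts the invariant chain in antigen-presenting cells, was at 114, 85.8 and 90.7 FPKM across f/f libraries, against 384, 986 and 69.6 across labelled d/d libraries, the order of the class II genes (limma adjusted p = 0.299). Ctsd was at 3628, 3749 and 3128 FPKM across f/f libraries, against 2384, 959 and 438 across labelled d/d libraries (limma adjusted p = 0.114). When any 1 f/f library was left out, neither Ctsh nor Ctsb, nor Hspa5 or Klra8 of the lists that follow, was called. The same held with the replicate number as a block. Ctsb was also lost without a filter on low values, with quantile normalization and without labelled d/d replicate 1. Hspa5 was lost without that filter as well.

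The remaining lists of the pathway gave few calls. Of 6 genes that fold class I chains, 1 passed and was higher (3.49% of all genes), the chaperone gene Hspa5 (log2 fold change 1.10, limma adjusted p = 0.0352). Pdia3 and Canx had log2 fold changes of 0.59 and 0.36 (limma adjusted p = 0.0755 and 0.172). These 3 genes had an unadjusted p under 0.05 (26.7% of all genes) and did not overlap, with labelled d/d higher (18.1% of all genes). Of 8 tested genes for T cell coreceptors and natural killer receptors of MHC molecules, 3 had an unadjusted p under 0.05 (26.7% of all genes). In 3 the groups did not overlap, with labelled d/d lower (17.8% of all genes). Only 1 passed and was lower (3.81% of all genes), Klra8, which encodes a natural killer receptor for class I and has close paralogs. It was at 2.86, 2.43 and 2.43 FPKM across f/f libraries, against 1.20, 1.10 and 1.28 across labelled d/d libraries (limma adjusted p = 0.0491). This call was lost with a pseudocount of 0.1, quantile normalization, array weights, the replicate block and without any 1 library. Of the 4 tested relatives of class I, 0 passed and 2 had an unadjusted p under 0.05 (26.7% of all genes). Mr1, which presents vitamin metabolites, was at 19.4, 16.9 and 19.2 FPKM across f/f libraries, against 9.15, 13.5 and 7.57 across labelled d/d libraries (limma adjusted p = 0.0678), a direction opposite to H2-K1 and H2-D1. Of 5 tested costimulation genes 0 passed, at an unadjusted p under 0.05 as well. Cd86 and Cd40 were highest in labelled d/d replicate 2, at 21.5 and 25.5 FPKM against at most 2.00 and 2.79 in f/f libraries.

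Markers of leukocytes and macrophages were highest in the same library as class II. In these whole-tissue samples a change in the number of cells of a type and a change in RNA per cell cannot be told apart. The 6 general leukocyte markers summed to 267 to 338 FPKM in f/f and to 561, 2416 and 209 in labelled d/d libraries, and labelled d/d replicate 2 was the highest library in 6 of 6. The 10 macrophage markers summed to 399 to 525 FPKM in f/f and to 1119, 3683 and 505 in labelled d/d libraries, and labelled d/d replicate 2 was the highest library in 10 of 10, against 21.1% of all genes tested. Of these 10, 1 passed and was higher (3.49% of all genes), Cd68 (limma adjusted p = 0.0310), and 4 had an unadjusted p under 0.05 (26.7% of all genes). The 9 dendritic cell markers summed to 18.2 to 21.2 FPKM in f/f and to 18.8, 53.2 and 6.25 in labelled d/d libraries, with Itgax at 18.1 FPKM and Ccr7 at 4.83 in labelled d/d replicate 2. Only 5 were tested and 0 passed, with a median log2 fold change of -0.08. Zbtb46 alone had an unadjusted p under 0.05 and was lower (limma adjusted p = 0.180). It was at 4.37 to 5.49 FPKM in f/f and 2.93, 4.15 and 1.59 in labelled d/d libraries, with no overlap. B cell markers other than Cd79b were low. Cd79a and Ms4a1 were at 0.641 FPKM or less in every library except labelled d/d replicate 2, where they were at 2.64 and 0.938. Ms4a1 was listed at 0 in f/f replicate 3 and labelled d/d replicate 1. Pax5 was at 0.106 FPKM or less in all libraries and highest in f/f replicate 2. Cd79b, the 1 tested gene of the same list, passed and was higher (limma adjusted p = 0.0492). It was at 0.586 to 0.871 FPKM in f/f and 2.70, 11.4 and 5.51 in labelled d/d libraries, with no overlap. The part of these cells in the class II values was not tested.

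T cell and neutrophil markers were mostly highest in labelled d/d replicate 2 as well, in 5 of 5 and 4 of 5 tested, while natural killer cell and epithelial markers were highest there in 0 of 7 and 0 of 8. The 6 T cell markers found in the tables summed to 20.2 to 31.2 FPKM in f/f and to 21.3, 151 and 10.8 in labelled d/d libraries. The 7 neutrophil markers summed to 5.58 to 13.1 FPKM in f/f and to 28.5, 1135 and 27.6 in labelled d/d libraries, with S100a9 listed at 0 in labelled d/d replicate 3 and Mmp8 in f/f replicate 2. Most of the sum in labelled d/d replicate 3 was Ly6g, at 25.0 FPKM there. The median log2 difference from the f/f mean over the 5 tested neutrophil markers was -0.51 in that library. The 7 natural killer cell markers summed to 60.1 to 104 FPKM in f/f and to 24.7, 36.4 and 4.63 in labelled d/d libraries. Of these 7, 1 passed and was lower (3.81% of all genes), Prf1 (limma adjusted p = 0.0289). At an unadjusted p under 0.05 there were 6, all lower (26.7% of all genes in either direction). In 6 the groups did not overlap, with labelled d/d lower (17.8% of all genes). The 8 epithelial markers summed to 745 to 923 FPKM in f/f and to 1717, 793 and 2821 in labelled d/d libraries. Of these 8, 3 passed and were higher (3.49% of all genes), Krt7 and Epcam among them. Of 6 endothelial, 7 stromal and 6 smooth muscle markers, 1, 1 and 0 passed, Cdh5 and Hand2, both lower (3.81% of all genes). At an unadjusted p under 0.05 there were 5, 3 and 0 (26.7% of all genes). No marker of these cell type lists was called when any 1 f/f library was left out. Cd68, Cd79b and Cdh5 were also lost without a filter on low values, and Prf1 with a pseudocount of 0.1. Without that filter 1 epithelial marker was called, against 3 in the main fit. With the replicate number as a block 1 epithelial and 1 endothelial marker were called. That block left 0 calls among macrophage, B cell, natural killer cell and stromal markers. The sum of H2-Aa, H2-Ab1, H2-Eb1 and Cd74 was 2.87, 2.77 and 2.74 times that of the leukocyte markers in f/f libraries and 3.33, 4.15 and 1.76 times in labelled d/d libraries. Against the macrophage markers it was 1.84, 1.71 and 1.95 times in f/f and 1.67, 2.72 and 0.727 times in labelled d/d libraries. Class II thus varied less against these markers than in FPKM, and labelled d/d replicate 3 remained the lowest.

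**Figure D5:**
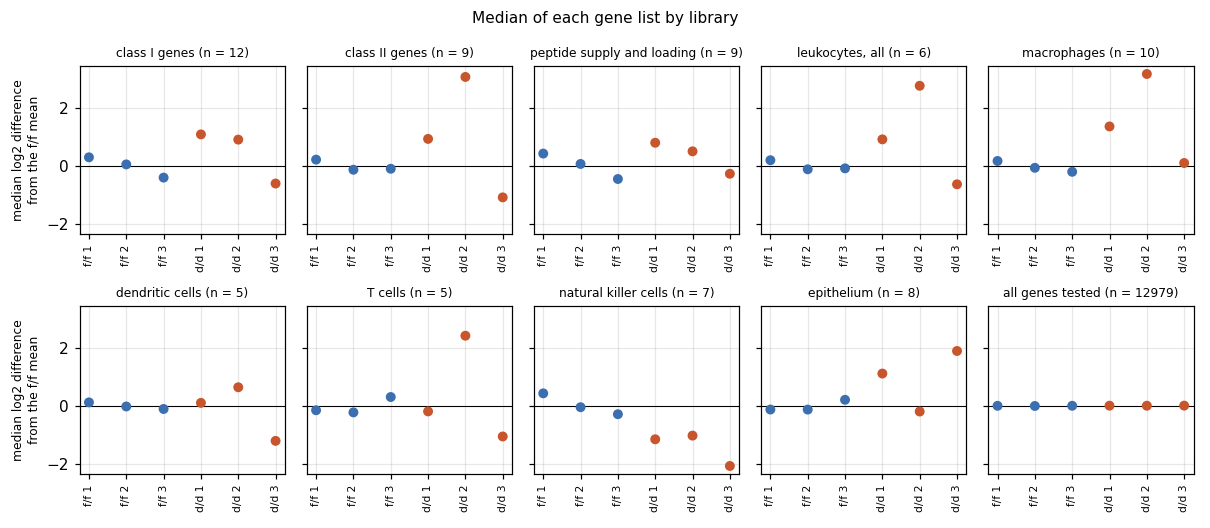
Median log2 difference from the f/f mean in each library for the tested genes of 9 lists and for all 12979 genes tested, f/f in blue and labelled d/d in orange. In labelled d/d replicate 2 the medians of class II genes, leukocyte markers and macrophage markers stand at 3.07, 2.77 and 3.18, class I at 0.91 and natural killer cell markers at -1.03, and in labelled d/d replicate 3 class II stands at -1.08 and epithelial markers at 1.89.

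H2-Ke6, which shares only the locus and the prefix, was at 54.5, 57.8 and 56.6 FPKM across f/f libraries, against 51.3, 46.2 and 37.8 across labelled d/d libraries. It was lower in every labelled d/d library, without passing (log2 fold change -0.32, limma adjusted p = 0.204), and 70.5% of its 50-base words occur in other genes. Of the 47 members 39 lie on chromosome 17, and the neighbours there did not share 1 pattern: H2-K1 and H2-D1 lie on either side of the class II genes and were higher in labelled d/d replicate 3, where all 9 tested class II genes were lowest.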

How the data were processed

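Whole-uterus RNA of 6 libraries was extracted with TRIzol and made into TruSeq RNA libraries, per the labels' protocols. The authors deposited 1 table per library with 1 value for each of 21936 genes, taken as FPKM. The unit was inferred from the decimals, the unequal totals and Cufflinks, since the headers name none. The tools listed are HISAT2 2.2.1 with Cufflinks 2.2.1, and the builds mm9 and mm10, per the submitters' processing notes. The annotation, options and strandedness were not given in the sources used here. Positions come from GENCODE M21 (GRCm38), which matched 21894 of the gene IDs.

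For symbols on several rows, only that of greatest mean stayed (36 rows dropped). The 12979 genes reaching 1 FPKM in 3 or more libraries were tested on log2(FPKM + 1) values, using limma 3.58.1 under R 4.3.3 (genotype only, intensity trend, two-sided, Benjamini-Hochberg adjustment over all genes). Fold changes on this scale understate those of low genes. Folds are ratios of mean FPKM, and SD and n refer to 3 libraries per group. The test was checked on simulated data, drawn independently for each gene and library. That check does not cover shifts shared by many genes of a library, as seen here. No batch is given in the labels.

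Genes named were all members, and of each of 8 pathway and 11 cell type lists the called genes and up to 3 others in order of p, beside a few given for their role or their zeros. Members and lists were chosen with earlier results of these data known. Alternatives were another pseudocount (0.1), no filter, median-of-ratios scaling, quantile normalization, array weights, the replicate number as a block, and leaving out each library. Some genes of these lists are not reported here by name.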

Additional observations from a re-analysis of the deposited data

How the results depend on the processing

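The count of called members was 0 under another pseudocount, no filter, both other scalings, array weights and the replicate block, and the same held for class II, peptide supply and the transactivators without any 1 library. With 1 library left out, 0 to 3 class I genes, 0 to 9 pathway genes outside the members (4 with all libraries) and 0 to 1367 of all genes (947) were called. Leaving out f/f replicate 1, 2 or 3 gave 0, 30 or 111 calls among all genes. The class II minus class I difference in median log2 fold change (0.62) ran from -0.29 to 1.19 with 1 library left out. It turned to -0.29 without labelled d/d replicate 2, where 10 of 33 members changed sign, and was 0.61 to 0.62 under another pseudocount, no filter and both other scalings (it was not computed under array weights or the block). Without a filter 2 pathway genes passed. With the replicate number as a block 100 of all genes and 0 pathway genes passed. Same-numbered libraries did not deviate together (correlations of -0.020, 0.020 and -0.021), so the numbers were not taken as a pairing. H2-T22 alone changed sign with quantile normalization (0.04 to -0.0052). The files give no read numbers, so no counting interval can be given.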
